A study of Arabidopsis thaliana with 48 samples.

Results

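The 49 probe sets described here are late-repressed genes of dark-grown Arabidopsis thaliana seedlings: each had a lower signal than in darkness after 4 h of every one of 7 light treatments, and none had reached that difference after 45 min. They were chosen from the signals themselves. For a given light and harvest, D is the log2 ratio of the mean signal of the light group plus 16 to the mean signal of the dark group of the same harvest plus 16, so a negative D is a lower signal in light. The rule asked for a mean signal of 50 or more in at least 1 group, for D above -0.5 in all 7 lights at 45 min, and for D of -0.5 or lower in all 7 at 4 h. Of 22746 probe sets without controls, 11838 reached the level and 51 met every condition. The genes ICL and AT1G72290 were set aside by name, which gives 49, and MCCA and IVD, which the rule also names, did not meet the thresholds. Without the condition at 45 min, 71 probe sets were lower at 4 h in every light. The rule used each difference between light and darkness, so these are given below as a description without a test, and tests are given for differences between lights.

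All seedlings were of the accession Col-0, received 2 h of light to induce germination, and spent 94 h in darkness at 22 °C. They then either remained in the dark or received light. The continuous lights were white, blue (453 nm), red (650 nm) and far-red (715 nm), each at 10 µmol per m2 per s. The red pulse (650 nm) lasted 1 min at 50 µmol per m2 per s. Both UV pulses lasted 5 min: UV-A came at 7 W per m2 through a filter with a cut-off of 327 nm, and UV-A together with UV-B, here UV-A/B, had a cut-off of 307 nm in the only label that gives it. That label belongs to UV-A/B 45 min replicate 2, which is also described as dark against its title. Pulsed seedlings went back to darkness until harvest. Each of the 8 conditions was harvested at 45 min and at 4 h with 3 ATH1 arrays, 48 in all, from material that was mostly hypocotyl and cotyledon. The labels do not say that the 3 replicates were separate cultures, so p-values measure the spread between arrays, which may be technical.

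Seedlings that germinate in darkness live on seed reserves, elongate the hypocotyl and keep the cotyledons closed over undeveloped plastids. Light, read by phytochromes, cryptochromes and the UV-B receptor, ends this programme: elongation slows, cotyledons open and chloroplasts form. Genes whose transcripts are abundant in the dark programme and less so in light are called light-repressed.

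Tissue identity was checked in the dark groups. Of 10 markers of etiolated hypocotyl and cotyledon, 2 had a named probe set: PORB, a protochlorophyllide reductase of dark-grown tissue, had a signal of 1178 ± 290 (SD, n = 3) at 45 min and 1011 ± 133 at 4 h, and ICL, the isocitrate lyase of seed oil use, had 1219 ± 158 and 1244 ± 168. Of 10 root markers, 2 had one as well. The root hair expansin EXPA7 had a signal of 5.47 ± 0.76 and 4.87 ± 0.49, under the 40th percentile of every array (24.3 to 30.1), and EXPA18 had 37.1 ± 16.1 and 31.5 ± 3.65. The change of EXPA18 from darkness at 4 h lay between -0.35 in red and 0.06 after UV-A, and its part in the results was not tested. Signals come from whole tissue, so fewer cells of a type and less RNA per cell cannot be told apart.

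The 49 members lay deepest below darkness in the continuous far-red, blue and white lights and least below it after the red and UV-A pulses. At 4 h the median D over the members was -1.24 in far-red, -1.22 in white, -1.20 in blue, -1.02 after UV-A/B, -0.99 in red, -0.72 after UV-A and -0.69 after the red pulse. The median over all 15780 probe sets tested lay between -0.03 and 0.0037 in these groups. D was -1 or lower for 33 members in white, 32 in blue, 29 in far-red, 25 after UV-A/B, 23 in red, 7 after UV-A and 4 after the red pulse. The weakest of the 7 lights was a pulse for 42 of 49 members, 22 of them with the red pulse and 17 with UV-A. The strongest was far-red, blue or white for 12 members each and UV-A/B for 9. The rule bounds D from above in each light, so a light with a weak effect could not fall short of -0.5 here. Averaged over the lights, D ranged from -0.60 to -2.32 with a median of -0.998, and 24 members had a mean of -1 or lower.

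**Figure D1:**
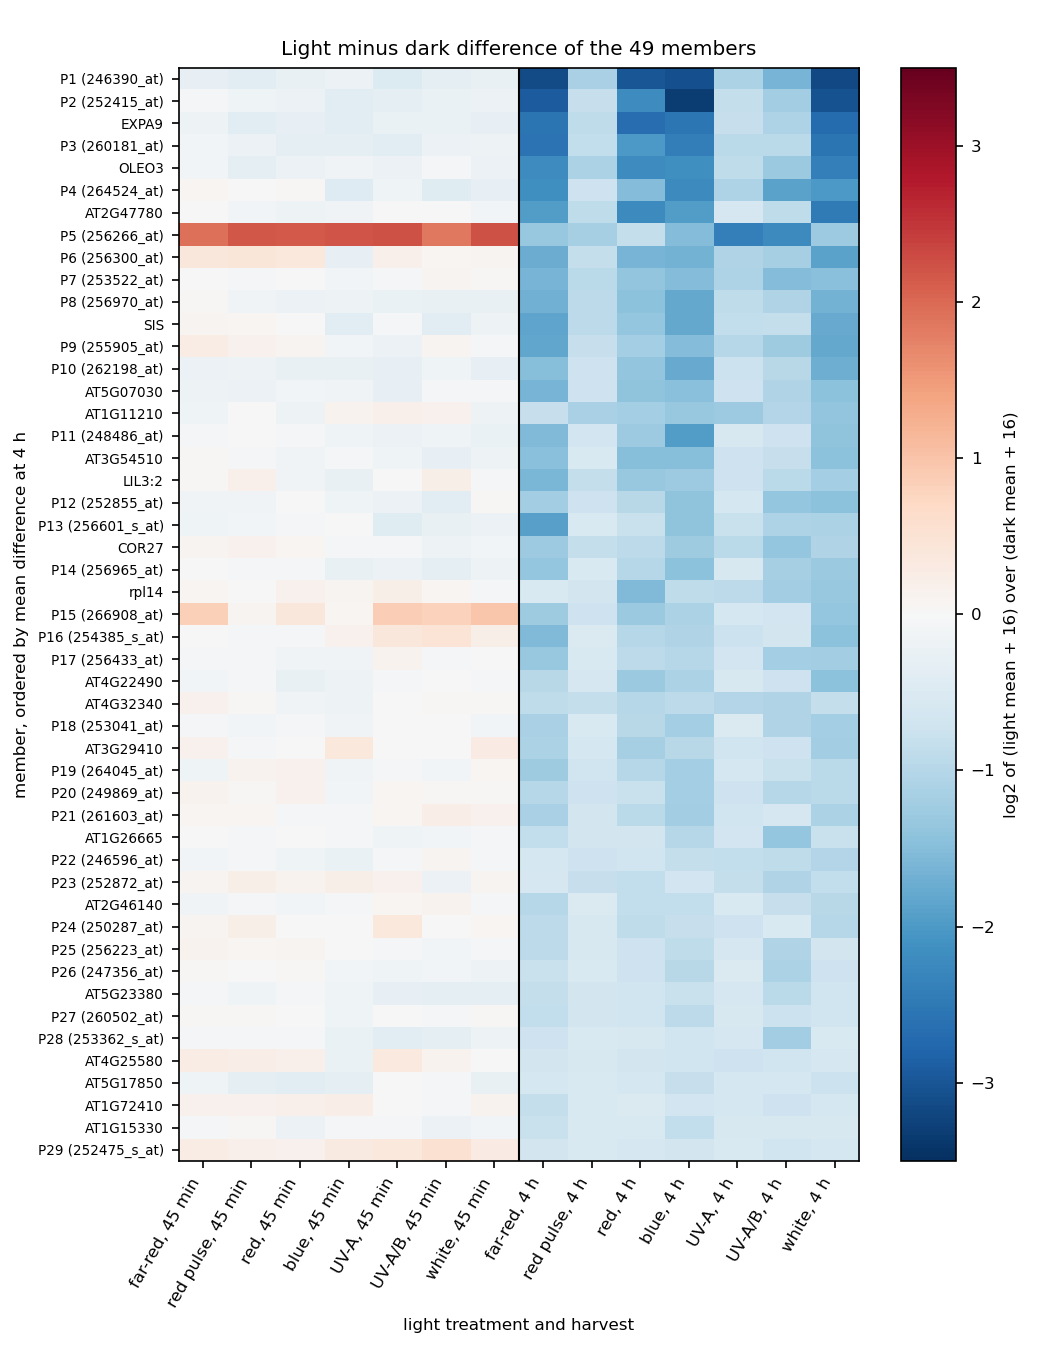
Light minus dark difference D (colour, log2 of mean signal + 16) for the 49 members (rows, ordered by mean D at 4 h) in the 7 lights at 45 min (left block) and 4 h (right block). Members without a single listed gene are numbered P1 to P29 by mean D and shown with their probe set ID. The right block is blue throughout, palest in the red pulse and UV-A columns, and P5 is red across the left block, with D between 1.85 and 2.24.

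The arrays of a group lay close together in most lights and farther apart after both UV pulses. The median difference of the members from the dark mean was -1.17, -1.16 and -1.21 on the 3 far-red arrays at 4 h and -1.21, -1.24 and -1.26 on the white ones. It was -0.70, -0.63 and -0.75 after the red pulse. The UV-A arrays gave -0.66, -0.60 and -0.91, and the last of these, replicate 3, lay below the other 2. The UV-A/B arrays gave -1.01, -0.86 and -1.12. The 3 dark arrays stayed between -0.03 and 0.01. For 43 members, a count given here without its share over all probe sets tested, all 3 arrays of every light lay below all 3 dark arrays. By light, the arrays were separate from darkness in this way for 49 members in white (19.4% of all probe sets tested), 49 in red (17.6%), 48 in far-red (24.1%), 48 in blue (22.4%), 46 after UV-A/B (18.8%), 46 after the red pulse (10.7%) and 45 after UV-A (11.1%). These counts use the contrasts that chose the members, and nothing is read from them.

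**Figure D2:**
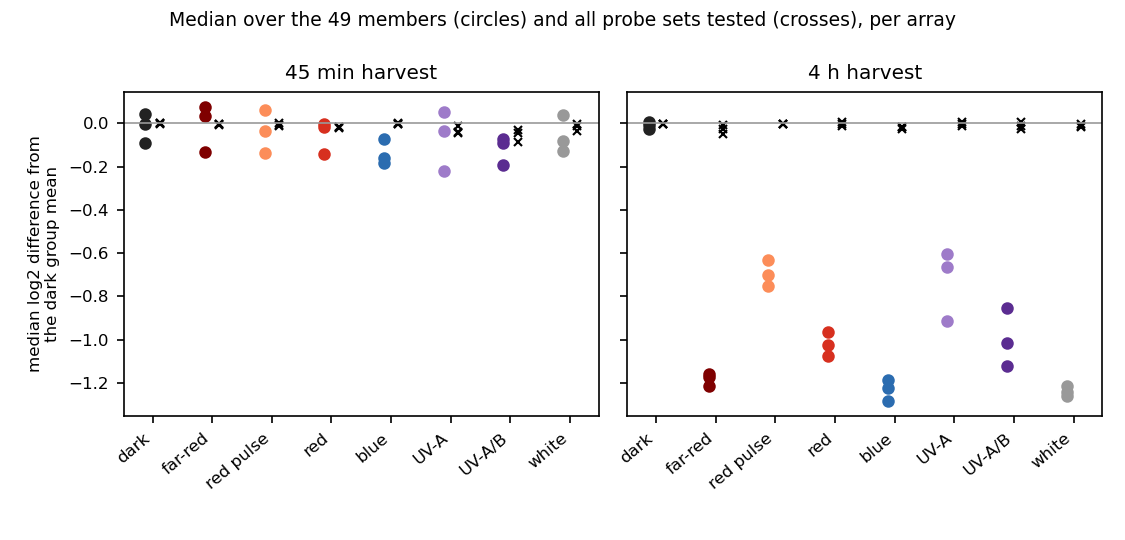
Median log2 difference from the dark group mean over the 49 members (circles) and over all probe sets tested (crosses) on each array, by condition, at 45 min (left) and 4 h (right). At 4 h the circles of the 7 lights lie between -0.60 and -1.28 while the crosses stay near 0.

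Of the 49 members, 20 match 1 gene, 1 matches several and 28 are not listed in the annotation used here. The 29 without a single gene are called P1 to P29 here, from the lowest to the highest mean D at 4 h, and the plot of differences from darkness gives their probe set IDs. Of the 20 genes, 6 carry a symbol beyond their locus. These 6 belong to the cell wall (EXPA9), the oil body (OLEO3), the plastid (LIL3:2 and rpl14) and genes named for their response to cold or salt (COR27 and SIS). AT2G46140 has the synonym LEA27, late embryogenesis abundant 27. The 20 genes lie on all 5 chromosomes and, for rpl14, in the plastid genome, with 8 on chromosome 5, and no pair of them is adjacent.

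EXPA9 encodes an expansin, a protein that loosens the cell wall as cells expand. At 45 min its signal was 729.6, 600.9 and 633.8 in darkness and between 423.5 and 639.0 on the arrays of the 7 lights. At 4 h the dark arrays read 608.0, 607.5 and 651.6, the white arrays 68.4, 100.3 and 78.1, and the red arrays 101.3, 73.7 and 76.2. The red pulse arrays read 356.3, 359.4 and 268.8, and the UV-A arrays 321.5, 457.3 and 260.0. The arrays form 2 levels in light at 4 h: those of the 4 continuous lights lay at 104.3 or lower, and those of the 3 pulses at 243.7 or higher. EXPA9 had a D of -2.70 in white, and its mean signal there was 13.2% of the dark mean. The difference between continuous and pulsed light was -1.67 ± 0.08 (SE, log2, adjusted p = 9.81e-20 by limma with Benjamini-Hochberg adjustment over all 15780 probe sets tested). The rule did not use this contrast, but it used the mean of each light.

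OLEO3 encodes an oleosin, a coat protein of the oil bodies in which seeds store lipid. Its dark signal was 378.4, 379.3 and 424.0 at 4 h. Far-red gave 73.7, 73.5 and 73.9, white gave 67.3, 58.7 and 58.2, and the red pulse gave 158.5, 198.4 and 168.5. As for EXPA9, the continuous lights gave the lower signals, and no array of the red pulse overlapped those of far-red or white. OLEO3 differed between red and the red pulse by -1.10 ± 0.17 (SE, log2, limma adjusted p = 1.14e-05), and continuous lights differed from pulses by -1.12 ± 0.09 (SE, log2, adjusted p = 3.22e-13). Far-red and red light, with means of 73.7 and 73.0, differed by -0.01 ± 0.17 (SE, log2, adjusted p = 0.981).

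LIL3:2 encodes a light-harvesting-like protein of the thylakoid that takes part in chlorophyll synthesis. At 45 min replicate 3 was the lowest of the 3 arrays in all 8 groups, with 273.7 in darkness against 592.5 and 587.6 in the other dark arrays. At 4 h the dark arrays read 594.8, 602.7 and 489.1, and far-red gave 158.8, 167.4 and 201.5. UV-A gave 334.9, 515.7 and 160.0, so its arrays spread widely and overlapped the dark ones. Among the 7 lights LIL3:2 was not called (limma F test adjusted p = 0.582), and with an SE of 0.36 for a difference between lights this does not show that the lights acted alike. The fit had no term for replicate number, so spread shared by same-numbered arrays is part of this SE.

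The other plastid member, rpl14, a ribosomal protein gene of the plastid genome, had the loosest values. In darkness it read 59.1, 242.3 and 40.2 at 45 min and 275.8, 296.8 and 120.9 at 4 h. Its red arrays at 4 h read 66.4, 107.4 and 33.8, and its far-red arrays 159.8, 236.7 and 72.4. At least 1 light array lay above the lowest dark array in far-red, blue and after all 3 pulses, and red and white lay wholly below darkness. At 45 min replicate 3 was the lowest of the 3 arrays in every group. Its dark mean at 4 h was 0.93 above that at 45 min (log2), and its change in light between the harvests ran from -0.77 in red to 0.35 in far-red, with a mean of -0.16. Most of its D at 4 h thus comes with the higher dark signal, and in red the lower light signal is nearly as large a part. Its SE for a difference between lights was 0.62, and the lights were not called apart (F test adjusted p = 0.831).

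COR27 is a cold-induced gene that also acts in the circadian clock and in light responses of the seedling. Its signals were low: 46, 61.0 and 55.3 in darkness at 4 h, 5.4, 17.2 and 17.3 in far-red, and 13.5, 12.6 and 8.2 after UV-A/B. All light means at 4 h (11.4 to 23) lay under the 40th percentile of every array, so the size of its difference is uncertain. UV-A/B gave its lowest D, -1.35, and the red pulse its highest, -0.84. The 7 lights were not called apart (F test adjusted p = 0.252), and continuous and pulsed light differed by -0.08 ± 0.11 (SE, log2, adjusted p = 0.67).

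SIS, named for its induction by salt, read 804.4, 796.4 and 652.7 in darkness at 4 h and 206.4, 232.2 and 151.4 in far-red. After UV-A/B it read 366.8, 582.3 and 301.8, still below every dark array. SIS differed among the lights (F test adjusted p = 4.54e-05) and was lower in continuous than in pulsed light, with a difference of -0.82 ± 0.12 (SE, log2, adjusted p = 6.77e-07). LEA proteins accumulate as seeds dry and protect cells against water loss. AT2G46140 read 72.8, 71.7 and 81.0 in darkness and 34.5, 24.9 and 30.3 in far-red at 4 h, with 52.5, 41.9 and 49.3 after the red pulse. Its far-red arrays all lay below its red pulse arrays, a difference of -0.48 ± 0.11 (SE, log2, adjusted p = 0.00135).

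**Figure D3:**
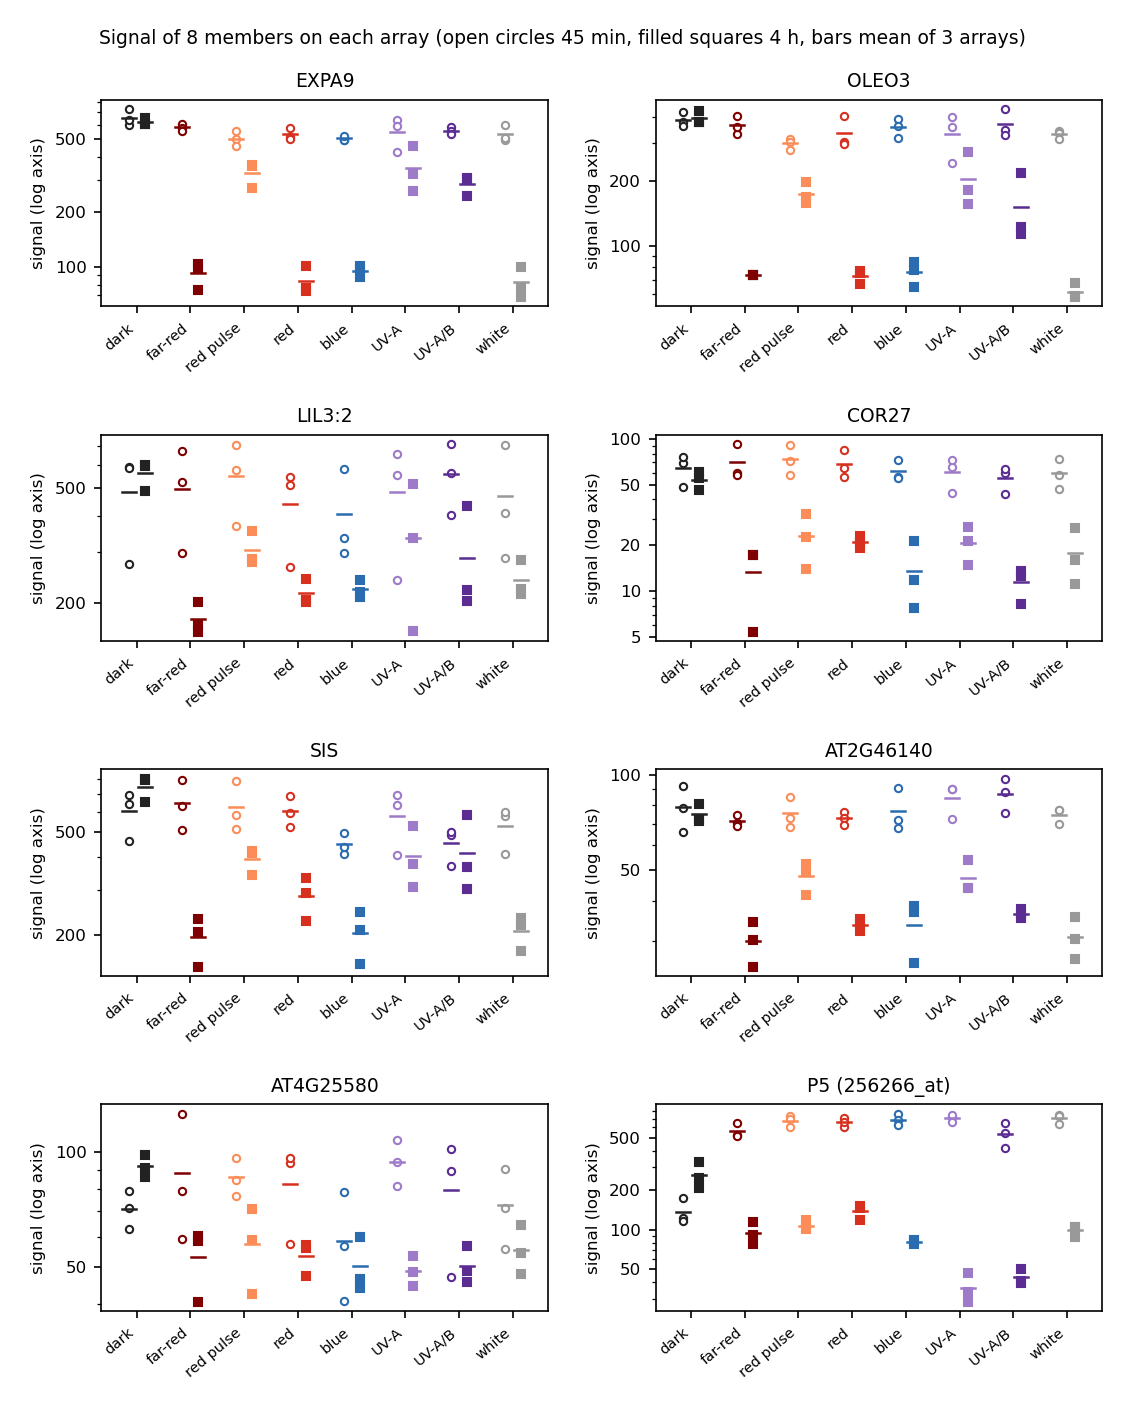
Signal (log axis) of 8 members on each array in darkness and the 7 lights, at 45 min (open circles) and 4 h (filled squares), with bars at the mean of 3 arrays. EXPA9 and OLEO3 show 2 levels in light at 4 h. AT4G25580, picked for its small spread over the lights, shows 1, and P5 is above darkness at 45 min and below it at 4 h.

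The other members of 1 gene are known only by a locus, and no role is given to them. AT2G47780 had the lowest mean D of these, -1.57. It read 397.4, 384.5 and 292.6 in darkness at 4 h, 65.7, 44.6 and 43.1 in white, and 220.8, 354.2 and 129.5 after UV-A, where 1 array lay within the dark range. It spread most among the lights of all 20 single genes, with D from -0.58 after UV-A to -2.48 in white, and its difference between red and the red pulse was -1.33 ± 0.24 (SE, log2, adjusted p = 0.000189). AT3G54510 showed the same grouping more tightly. Its red pulse arrays read 142.2, 136.2 and 129.7 and its red arrays 65.2, 66.4 and 55.1, a difference of -0.96 ± 0.13 (SE, log2, adjusted p = 2.37e-06). AT5G07030 (D from -0.72 to -1.62) and AT4G22490 (-0.56 to -1.43) were likewise lower in red than after the red pulse, with differences of -0.69 ± 0.12 and -0.75 ± 0.21 (SE, log2, adjusted p = 0.000172 and 0.0336).

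AT1G26665 stood out under UV-A/B. Its arrays there read 160.7, 99.6 and 130.7 at 4 h, all below the 238.5, 205.6 and 205.9 of UV-A, and the dark arrays read 327.3, 354.8 and 383.6. The difference between the UV pulses was -0.69 ± 0.13 (SE, log2, adjusted p = 0.000354), and in a fit on these 2 groups alone the adjusted p was 0.0617. At the other end, the 5 members with the smallest spread of D over the lights were P29, with D from -0.52 to -0.69, and 4 single genes. AT4G25580 ranged from -0.55 to -0.73, AT4G32340 from -0.82 to -1.05, AT5G17850 from -0.54 to -0.81 and AT1G15330 from -0.54 to -0.85. AT4G25580 read 98.3, 85.9 and 91.1 in darkness and, after UV-A, 44.6, 53.4 and 48.4. None of the 4 genes was called among the lights, with an F test adjusted p of 0.992 for AT4G25580. They were picked for a small spread over these same lights, so this outcome follows from the choice.

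The members farthest below darkness are among those without a single listed gene, and they were chosen for the text after their values were seen. P1 had the lowest mean D, -2.32, and was the only member at -1 or lower in all 7 lights. It read 1195.5, 988.3 and 1269.5 in darkness at 4 h against 131.0, 119.3 and 101.9 in far-red, and 530.8, 535.0 and 483.6 after the red pulse. The 3 groups did not overlap, with the pulse between darkness and far-red. P2 had the lowest single D, -3.33 in blue, where it read 95.1, 132.1 and 115.1 against 1255.0, 1320.5 and 1291.7 in darkness. In red it read 237.6, 263.8 and 301.7, all above the blue arrays.

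At 45 min the members lay near darkness as the rule requires, with group medians of D between -0.11 in blue and -0.0001 in far-red. Light arrays lay wholly below the dark ones for 5 members in white (6.35% of all probe sets tested), 7 in blue (7.08%), 6 in red (8.06%), 2 in far-red (5.81%), 5 after the red pulse (6.26%), 6 after UV-A/B (12.5%) and 7 after UV-A (8.82%). They lay wholly above them for 3 members in white (5.96%), 4 in blue (7.42%), 2 in red (6.61%), 2 in far-red (6.79%), 1 after the red pulse (6.65%), 4 after UV-A/B (8.49%) and 6 after UV-A (7.65%). Both counts use contrasts of the rule, and nothing is read from them. For 8 members all arrays of at least 1 light lay above darkness at 45 min and below it at 4 h. Over all probe sets tested the share was 3.69%. The rule favours the 4 h part of this pattern in the members, so the count is not set against that share. For 3 members D reached 0.5 or more in some light at 45 min. P5 is the extreme: at 45 min it read 174.8, 122.0 and 116.1 in darkness and 719.5, 746.9 and 665.6 after UV-A, with D between 1.85 and 2.24 over the lights. At 4 h it read 326.3, 249.9 and 206.8 in darkness and 33.6, 28.5 and 46.8 after UV-A. It was therefore above darkness in all 7 lights at the first harvest and below it in all 7 at the second. P15, a low signal, had a D at 45 min of 0.98 in white, 0.87 after UV-A, 0.84 in far-red and 0.80 after UV-A/B, and P29 reached 0.54 after UV-A/B.

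Between the harvests most members changed more in light than in darkness. In darkness the signal at 4 h was within 0.5 (log2) of that at 45 min for 46 of 49 members, and was higher by 0.5 or more for P5 (0.85), P6 (0.70) and rpl14 (0.93). No member was lower by that much, and the dark change was above 0 for 35 members. The median dark change was 0.09, against -0.02 over all probe sets tested. In light, 48 of 49 members were lower at 4 h than at 45 min in all 7 lights, rpl14 being the exception, and 23 were lower by 0.5 or more in all 7. The median of the mean change in light was -0.90, against -0.02 over all probe sets tested. Light and dark groups of both harvests enter the rule, which asks for a lower D at 4 h than at 45 min. These values are therefore a description, and the counts have no share over all probe sets tested beside them.

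**Figure D4:**
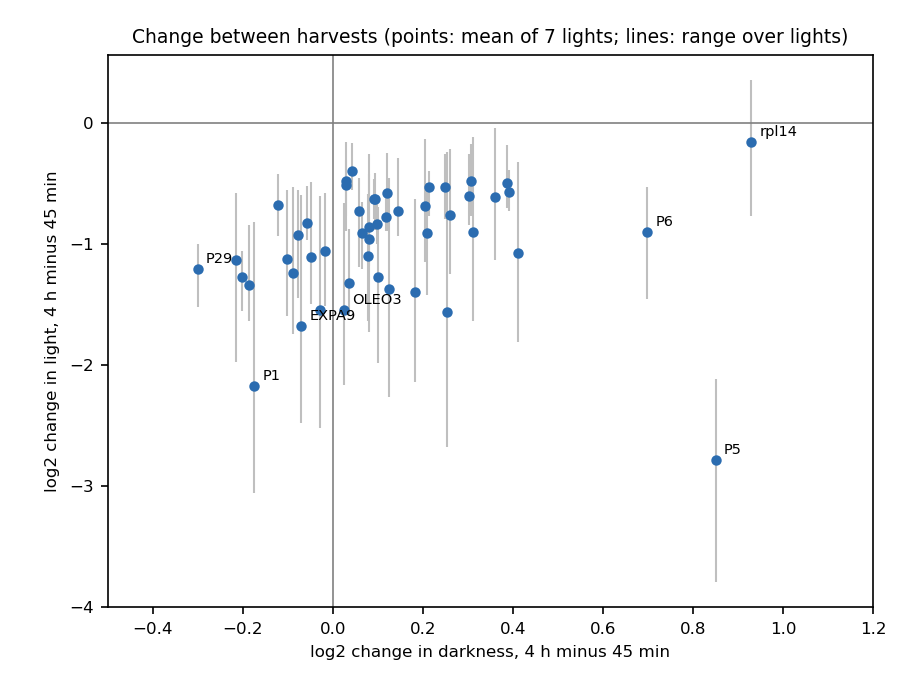
Log2 change of each member from 45 min to 4 h in darkness (horizontal axis) and in light (vertical axis; points are the mean of the 7 lights and grey lines their range). Points gather near 0 on the horizontal axis and below 0 on the vertical one, and rpl14, P6 and P5 lie to the right at 0.93, 0.70 and 0.85.

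Differences between lights at 4 h do not involve the dark groups and were tested. The rule did use the mean of each light, and it bounded D at 4 h from above only. Members could thus differ between lights mainly by how far they fell. The shares called and their direction may therefore partly follow from the rule. Of the 49 members, 31 (63.3%) differed among the 7 lights by limma's F test, where 26% of all probe sets tested were called. The 18 that were not called include COR27, LIL3:2, rpl14 and the members with nearly equal D. At 45 min, 3 members (6.12%) were called, near the 5.24% of all probe sets tested: P4 (adjusted p = 0.00904), P15 (0.0212) and P16 (0.044). P15 and AT3G29410 are the 2 members with both dark means under 50, so they reached the level of the rule only through light groups at 45 min, and the 45 min test of P15 draws on those groups. The rule chose large differences from darkness at 4 h and small or positive ones at 45 min, so the 2 counts are not set against each other.

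The split with the most calls was that between continuous and pulsed light. Among the contrasts it also called the most of all probe sets tested. It averages several groups on each side, so its SE is smaller than that of a pair of lights (EXPA9: 0.08 against 0.15). Continuous and pulsed lights, compared as the mean of far-red, red, blue and white minus the mean of the red pulse, UV-A and UV-A/B, differed for 30 members (25.3% of all probe sets tested), of which 29 were lower in continuous light (12.6%) and 1 was higher (12.7%). Wavelength and energy also differ between the 2 sides. The comparison of red with the red pulse keeps the wavelength: 14 members were called, each lower in continuous red (4.34% of all called, 2.36% lower), with a median difference of -0.39 over the 49. Beside EXPA9, OLEO3, AT2G47780, AT3G54510, AT5G07030 and AT4G22490, these include P1, at -1.88 ± 0.15 (SE, log2, adjusted p = 9.61e-12). Far-red against the red pulse gave 25 members, each lower in far-red (18.4% called, 9.46% lower), with EXPA9 at -1.67 ± 0.15 (SE, log2, adjusted p = 9.15e-12) and a median of -0.50.

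The member higher in the mean of the continuous lights was P5, by 0.70 ± 0.08 (SE, log2, adjusted p = 4.42e-09). It was also the only member called between UV-A and the red pulse, at -1.25 ± 0.15 (SE, log2, adjusted p = 3.08e-06), in a comparison that called 6 probe sets in all (0.038%), 2 of them lower after UV-A (0.0127%). After UV-A it read 33.6, 28.5 and 46.8 and after the red pulse 118.2, 101.8 and 102.7. Its mean after the red pulse, 107.6, lay above those of far-red (95.1), blue (81.2) and white (99.8) and below that of red (139.3), while UV-A (36.3) and UV-A/B (43.7) gave the lowest means, so the pooled difference comes from the UV pulses.

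Between the UV pulses 11 members were called, each lower after UV-A/B (8.96% of all called, 3.92% lower). AT1G26665 was the only one of them that stands for 1 gene. The largest of the 11 differences was that of P4, at -0.78 ± 0.13 (SE, log2, adjusted p = 5.64e-05), with 175.2, 191.5 and 255.9 after UV-A/B against 390.4, 311.6 and 396.2 after UV-A. Without UV-A 4 h replicate 1 the count was 7, and in a fit on these 2 groups alone it was 3.

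In the pairs of continuous lights at most 10.2% of the members were called, where at most 7.62% of all probe sets tested were. The low counts there are thus not read as a trait of the members. Red and far-red differed for 5 members, each higher in red (7.62% called, 3.45% higher): P2 by 0.72, P4 by 0.63, P5 by 0.49, P13 by 1.11 and P16 by 0.55 (log2, adjusted p from 0.000207 to 0.0331). This count was 3 without red 4 h replicate 1 or without far-red 4 h replicate 2, and it was higher with a replicate block, as given below. Blue was lower than red for 5 members (4.44% called, 1.94% lower): P2 at -1.13, P4 at -0.70, P5 at -0.67, P11 at -0.70 and P14 at -0.42 (adjusted p from 3.25e-06 to 0.0215). It was 3 without blue 4 h replicate 1 or replicate 2. White was lower than red for P2 alone, at -0.83 ± 0.16 (SE, log2, adjusted p = 0.0027; 0.64% called, 0.139% lower), and 3 members were called without white 4 h replicate 3. Between blue and far-red limma called 0 members (0.336% of all), with 6 at an unadjusted p under 0.05, and between white and blue 0 (0.463%), with 5 at that level. The unadjusted counts have no share over all probe sets tested beside them, so nothing is read from them. A p that misses the threshold does not show that these lights act alike.

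**Figure D5:**
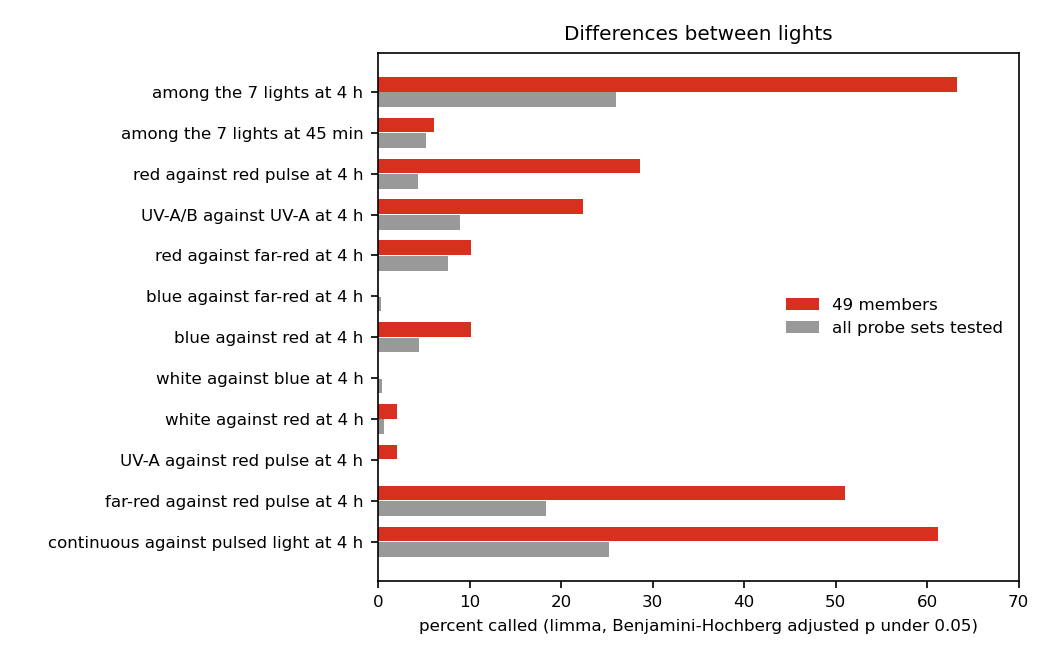
Percent of the 49 members (red bars) and of all probe sets tested (grey bars) called in each comparison between lights by limma with Benjamini-Hochberg adjustment. The members' bars are longest among the 7 lights at 4 h, in continuous against pulsed light and in far-red against the red pulse, and at 10.2% or lower in the single pairs of continuous lights, where the grey bars lie between 0.336% and 7.62%.

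The rule was also applied without the arrays of 1 replicate number, and the arrays left out were then read against each other. Without replicate 1 the rule found 54 probe sets, 36 of them among the 49. In the replicate 1 arrays these 54 had a median D at 4 h of -0.81, 48 lay below darkness in all 7 lights (20.5% of all probe sets tested), 24 were at -0.5 or lower in all 7 (0.678%), and 18 met the whole pattern. Without replicate 2 the rule found 65, with 38 shared, and in the arrays left out the median was -0.78, 53 were below darkness in all 7 lights (17.4%) 14 were at -0.5 or lower (0.45%) and 11 met the whole pattern. Without replicate 3 it found 33, with 27 shared, and the arrays left out gave a median of -1.05, 32 below darkness (20.9%), 22 at -0.5 or lower (0.792%) and 18 with the whole pattern. No share over all probe sets tested is given for the whole pattern, so nothing is read from its counts.

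Members near the threshold differ little from probe sets just outside it. The weakest D at 4 h was -0.50 for AT1G72410 and -0.51 for P18 and AT2G46140, which are members, and -0.49 for AT1G56220 and 2 unlisted probe sets, which are not. At 45 min the lowest D was -0.47 for P1, -0.46 for P4 and -0.43 for P13, all members, against -0.54 for AT3G19390 and -0.55 and -0.56 for a pair of unlisted probe sets, which are not.

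Genes of 10 pathways of the dark-grown seedling were read beside the members, and 46 of their 184 genes had a tested probe set. The lists were chosen with earlier results of these data known, so the counts here and below are a description. No support for a pathway is read from them. Genes named below from the lists were picked for a large change from darkness at 4 h or are named in the rule. Their p-values against darkness are therefore a description as well. EXPA9 is the only member among the genes, and its difference from darkness was fixed by the rule, so it is left out of the counts here. ICL also met the thresholds before it was set aside by name, and it stays in the counts. In far-red 27 of the other 45 were lower than in darkness at 4 h (15.4% of all probe sets tested were lower), in blue 27 (13.6%), in white 24 (10.3%), in red 21 (7.69%), after UV-A/B 20 (11.6%), after UV-A 8 (2.28%) and after the red pulse 2 (0.951%). At most 2 were higher in any light. Those lower after the red pulse were the branched-chain amino acid breakdown genes MCCB and ALDH6B2. Counted with EXPA9, the UV-A count of 9 was 4 without dark 4 h replicate 2 and 5 without UV-A 4 h replicate 3, and the red pulse count of 3 was 1 without the 2 arrays whose labels disagree, UV-A/B 45 min replicate 2 and dark 4 h replicate 1.

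Other cell wall genes were read beside EXPA9. Of 28 genes for wall loosening and cellulose synthesis 10 were tested apart from EXPA9, and 9 were lower in far-red, 8 in blue, 8 in white, 7 in red, 3 after UV-A/B, 1 after UV-A and 0 after the red pulse. The log2 difference of XTH19, a xyloglucan endotransglucosylase that remodels the wall, from darkness was -2.96 in far-red and -0.06 after the red pulse (limma adjusted p = 0.921 for the pulse). That of the expansin EXPA8 was -2.03 and 0.18 (adjusted p = 0.569 for the pulse). EXPA9, a member, had -2.57 and -0.90, given as a description. Whether EXPA9 differs from the others in this was not tested. Of 28 auxin genes 5 were tested, and all 5 were lower in far-red, red, blue and white, 3 after UV-A/B, 1 after UV-A and 0 after the red pulse. GH3.3, which conjugates auxin to amino acids, differed from darkness by -2.91 ± 0.21 in far-red (SE, log2, adjusted p = 1.39e-14) and by -0.29 ± 0.21 after the red pulse (adjusted p = 0.647).

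Genes of amino acid and reserve use were read in the same way. Of 17 genes of branched-chain amino acid breakdown 10 were tested, and 6 were lower in far-red, red, blue and white, 5 after UV-A/B, 4 after UV-A and 2 after the red pulse. MCCA, a subunit of methylcrotonyl-CoA carboxylase that the rule sets aside, had a log2 difference from darkness of -1.57 in blue (adjusted p = 1.57e-13), -0.50 after UV-A (0.00828) and -0.33 after the red pulse (0.166). IVD, isovaleryl-CoA dehydrogenase, had -0.92 in blue (1.46e-10), -0.29 after UV-A (0.0612) and -0.28 after the red pulse (0.0992), so the pulses kept it outside the rule. Of 19 genes of seed oil use and the glyoxylate cycle 4 were tested, and 2 were lower in far-red, blue, white and after UV-A/B, 1 in red and after UV-A, and 0 after the red pulse. ICL met the thresholds of the rule before it was set aside by name, so its differences are given as a description. They ran from -0.75 after the red pulse to -1.21 in blue. Of 12 autophagy genes 10 were tested, and 4 were lower after UV-A/B, 3 in blue, 2 in far-red and 0 in the other lights, with ATG8F at -0.78 ± 0.09 after UV-A/B (SE, log2, adjusted p = 1.39e-08). The other lists had at most 2 tested genes each, and brassinosteroid had 0.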

How the data were processed

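Expression was measured on 48 ATH1 arrays of 3 replicates in each of 16 groups. The values are linear intensity signals as deposited by the authors. Per the submitters' processing notes MAS5 was used; the sources used here do not give its version. Every array has a trimmed mean of 100.01, with 2% left out at each end. No detection calls were used, so low signals are uncertain, and the number of arrays limits the precision. Array medians ran from 37.1 to 43.8, and log2 signals of replicates correlated across probe sets at 0.9622 to 0.9875.

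Signals were taken as log2(value + 16), the scale of the rule, which understates changes of low signals. A probe set was tested if 3 or more arrays had it over their own 40th percentile. Without the 64 controls this leaves 15780, and all 49 members passed. The 16 group means were fitted to all arrays with limma 3.58.1 in R 4.3.3 (lmFit and eBayes with an intensity trend, 32 residual degrees of freedom), with Benjamini-Hochberg adjustment within each comparison and calls at an adjusted p under 0.05. There were 10 contrasts between lights at 4 h, and the procedure was tested on simulated data. Tables and figures were made with version 1.17.8 of data.table, pandas 2.3.3, numpy 2.4.6 and matplotlib 3.10.9 in Python 3.11.15.

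Groups come from the sample labels. UV-A/B 45 min replicate 2 is described as dark against its title, dark 4 h replicate 1 names green germination light where others name red, and far-red 45 min replicate 2 has 1 as well as its replicate number in its title. All 3 were kept, and the first 2 were also left out together. Same-numbered arrays deviated together, with correlations of at least 0.1147, in every compared pair of lights other than red against far-red (0.0781 at the lowest), so the numbers pair those arrays by that check, not by a label.

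Probe sets were named from the platform's annotation, with symbols from RefSeq (assembly TAIR10.1) for 13436 of 13513 probe sets of 1 gene. Of the members, 4 have IDs ending in s_at, which can read several transcripts. The members and gene lists were chosen with earlier results of these data known. Genes named in the text are members on a list, with a symbol, with the lowest mean D, with the largest or smallest spread over lights or with the largest called differences between lights, those at the threshold, and up to 4 others a list. Sequences and promoter motifs were not used here. Alternatives were other pseudocounts, quantile normalization, other level minimums, no filter, a replicate block, smaller fits and arrays left out in turn.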

Additional observations from a re-analysis of the deposited data

Results flagged for a closer look

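For 8 members all 3 arrays of at least 1 light lay above the dark arrays at 45 min and all 3 lay below them at 4 h, a pattern that 3.69% of all probe sets tested showed in at least 1 light. The rule favours the 4 h part in the members, so their count is not set against that share. The difference between the harvests was not tested, because the rule that chose the members used both. For P5 this held in 7 lights. In white light it read 745.8, 642.6 and 738.1 at 45 min against 174.8, 122.0 and 116.1 in darkness, and 106.0, 104.6 and 88.8 at 4 h against 326.3, 249.9 and 206.8. Its lowest signals came at 4 h after UV-A/B (50.8, 41 and 39.2) and UV-A. For P29 the reversal held in 4 lights, blue, UV-A, UV-A/B and white. After UV-A/B it read 160.2, 164.9 and 193.0 at 45 min against 108.1, 110.4 and 124.2 in darkness, and 38, 55.1 and 55.5 at 4 h against 73.0, 93.4 and 102.7. For P16 it held in 3 lights, blue, UV-A and UV-A/B, with 712.9, 817.6 and 757.2 at 45 min after UV-A/B against 477.1, 566.0 and 576.8 in darkness. P16 and P29 have IDs ending in s_at, which can read more than 1 transcript.

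For P15 it held in 2 lights, far-red and white, at signals near the floor, with 3.1, 2.8 and 3.0 in white at 4 h against 34.4, 16.9 and 44.9 in darkness. It held in 1 light for each of 4 others: red for P6 (136.3, 116.2 and 144.0 at 45 min against 113.6, 108.4 and 72.8), blue for AT3G29410 (69.3, 60.8 and 74.8 against 45.7, 44.8 and 57.4, a member that reached the level of the rule only through light groups at 45 min, as P15 did), UV-A for P24 (154.8, 145.0 and 195.0 against 134.4, 121.1 and 115.1) and UV-A for AT4G25580 (107.7, 81.6 and 94.2 against 71.4, 79.1 and 63.0). Light arrays lay wholly above the dark ones at 45 min for 5.96% to 8.49% of all probe sets tested, depending on the light.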

How the results depend on the processing

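Membership depends on the scale of the rule. It gave 67 probe sets with a pseudocount of 1 (49 of them shared), 33 with 32, 54 after quantile normalization (47 shared), 53 with group medians (39 shared), 40 with a level of 100, 53 with no level, 52 without the 2 arrays whose labels disagree (43 shared), and 33 to 67 without 1 array or 1 replicate number. Counts of calls kept within 1.5 times of the reported ones, and differences kept their direction, under all alternatives run other than these. With a pseudocount of 1, 1 member was called among the lights at 45 min and 1 between white and blue. With a replicate block 10 members were called for red against far-red, with no share over all probe sets tested given for that fit. Same-numbered arrays there correlated at 0.0781 to 0.144, and the lowest value missed the cut-off of the check for pairing. The block changed no other count by over 1.5 times. Fits on the groups compared alone gave 3 members for UV-A/B against UV-A and 5 list genes lower after the red pulse. Without the 2 disagreeing arrays 1 list gene was lower after the red pulse. The causes were not tested.

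Leaving out 1 array at a time gave 30 to 32 members among the lights at 4 h, 1 to 3 at 45 min (1 without blue 45 min replicate 3), 10 to 14 for red against the red pulse, 7 to 13 for UV-A/B against UV-A, 3 to 7 for red against far-red, 3 to 6 for blue against red, 1 to 3 for white against red, 22 to 24 for far-red against the red pulse, and 30 to 31 for continuous against pulsed light. For list genes, with EXPA9 counted, it gave 26 to 29 lower in far-red, 2 to 3 after the red pulse, 21 to 22 in red, 26 to 27 in blue, 4 to 8 after UV-A, 16 to 20 after UV-A/B and 24 in white. A low signal over background limits 8 members with a mean under the highest 40th percentile, 30.1, in some light at 4 h (COR27, AT3G29410, AT1G11210, AT2G46140, P9, P10, P11 and P15), and 28 members have no gene here.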
